A study of Mus musculus with 6 samples.

Results

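The genes described here are 10 targets of Wnt signalling in liver, Glul, Oat, Rhbg, Slc1a2, Axin2, Lgr5, Rnf43, Znrf3, Tbx3 and Lect2, out of 20659 genes with a named probe on the array. They were chosen by name, and every array probe whose transcript accession maps to one of these symbols was kept separately, which gave 13 probes for the 10 genes. Total RNA from the liver of untreated male mice aged 6 weeks was hybridised to 6 one-colour Agilent arrays, 3 from mice labelled WT and 3 from mice labelled Sec15 KO. Sec15 belongs to the exocyst, which helps secretory vesicles dock at the cell membrane, and the series title concerns STAT3 transport and the fate of blood stem cells. The labels do not say which of the Sec15 genes was removed, in which cells, or on which strain background, and they do not say that each sample came from its own animal. The p-values therefore measure only how these 6 samples vary, in part perhaps for technical reasons, and WT replicates 1 and 2 carry the same number in their deposited names.

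In the liver lobule, Wnt ligands and R-spondins released by endothelial cells around the central vein act on the neighbouring hepatocytes. There they stabilise beta-catenin, which with TCF/LEF factors turns on the pericentral genes. Some of these genes clear ammonia as glutamine, others are feedback regulators that limit the same signal, and hepatocytes nearer the portal vein carry a different set of enzymes for urea and glucose production. A bulk liver sample averages all zones, so fewer cells of a type and less RNA per cell cannot be told apart in what follows.

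The values below are log2 processed signals minus the 75th percentile of the same array, called the log2 signal, so 0 is the 75th percentile, and levels are not compared between probes. Of the 13 probes, 10 (of 9 genes) were well above background, by the scanner software's flag, on at least 3 arrays and were tested. Between 64.8% and 70.3% of all probes were well above background on an array. By the scan times in the file headers, the 3 WT arrays and KO replicate 2 were scanned together (scan 1) and KO replicates 1 and 3 together (scan 2). A model with the scan as a block therefore compares KO replicate 2 alone with WT, and its values equal those within scan 1. Its error comes from the spread among the WT arrays and between KO replicates 1 and 3, and KO replicate 2 is assumed to vary alike, so a p from it checks no replicate of its own. Leaving out KO replicate 2 makes group and scan coincide, so calls in that fit cannot tell Sec15 KO from the scan. Among the 27027 tested probes with a value on every array KO replicate 2 was the closest of the KO arrays to the WT mean in 54% of probes, and across the 10 tested probes described here in 7. Sec15 is encoded by Exoc6 and Exoc6b. The Exoc6 probe passed the background flag on 1 WT array and no KO array and was not tested. Of the pair of Exoc6b probes A_55_P1997415 was tested; it stayed above the flag on all 6 arrays and was lower in KO (log2 difference -0.53, SE 0.15, limma adjusted p = 0.0436). Whether these probes lie in a deleted stretch is not given, so they do not check the labels. The tissue label was checked with marker lists: all 9 hepatocyte markers were well above background on all 6 arrays, with Fgb, Hnf4a and Tat higher in KO and no member lower. Of 6 tested red cell markers 3 rose (Slc4a1, Hba-a1 and Hbb-bs), of 4 stellate markers 2 rose (Lrat and Dcn) and Ngfr fell, of 4 bile duct markers Sox9 fell, and of 5 pancreatic acinar markers 4 fell (Cel, Pnlip, Ctrb1 and Cpa1) while Amy2a5 rose. Over all named genes, with 1 probe each, 18.6% were called higher and 10.7% lower. After cyclic loess 1 hepatocyte marker was higher and 2 were lower, with a median of -0.14. Without WT replicate 3 or KO replicate 3 the red cell list alone among these lists kept calls, 3 in each fit.

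Of the 10 tested probes, 1 was higher and 1 lower in Sec15 KO at a limma adjusted p under 0.05, and both belong to Slc1a2. Among all tested probes 17% were called higher and 11.6% lower, 28.6% in all, so the count for these genes was not above the background. The log2 difference was above 0 for 8 of the 10 probes, and its median was 0.35, against 0.08 over all tested probes. In the brightest 10th of all tested probes, that of Glul, Oat and Lect2, the median was 0.29. After cyclic loess 7 of the 10 were above 0 and their median was 0.14, against -0.0011 over all tested probes. With the scan as a block, 5 of the 10 were above 0, the median was 0.04 and no probe passed the adjusted threshold. The groups did not overlap on 3 of the 10 probes, against 50.1% of all tested probes: KO lay above WT on 2 (30.6% of all) and below it on 1 (19.6% of all).

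**Figure D1:**
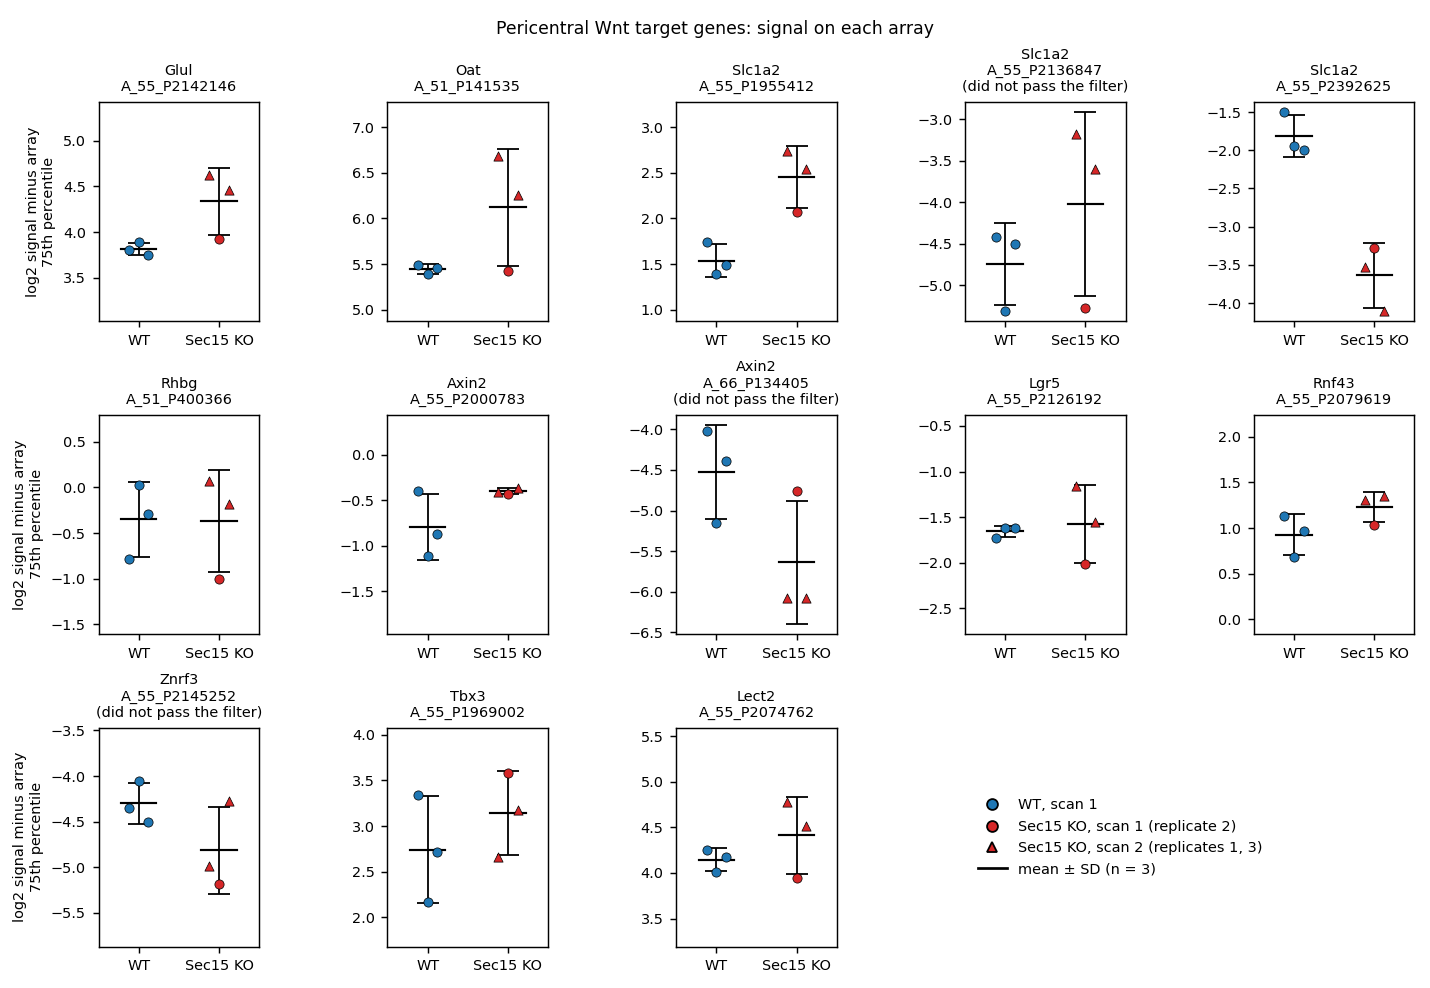
Log2 signal minus the array's 75th percentile (y axis) for each of the 13 probes in WT and Sec15 KO, 1 point per array, with circles for scan 1, triangles for scan 2 and bars for mean ± SD (n = 3). The KO circle lies near the WT points for Glul and Oat, while the Slc1a2 probes A_55_P1955412 and A_55_P2392625 separate the groups in opposite directions.

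Glul, glutamine synthetase, joins ammonia to glutamate and is the classical marker of the hepatocytes next to the central vein. On its probe A_55_P2142146 the log2 signal was 3.81, 3.89 and 3.75 in WT replicates 1 to 3 and 4.62, 3.92 and 4.47 in KO replicates 1 to 3. The KO values lay above the WT values, but KO replicate 2 exceeded the highest WT array only narrowly. The log2 difference was 0.52 (SE 0.19, 95% interval 0.05 to 1.00, 1.44-fold) and did not pass the test (limma adjusted p = 0.0891). Without KO replicate 2 it was 0.73 and passed (adjusted p = 0.00626), and with the scan as a block it was 0.11 (95% interval -0.21 to 0.43, adjusted p = 0.58). After cyclic loess it was 0.25 (adjusted p = 0.31). The pass without KO replicate 2 came from a fit in which group and scan coincide.

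Oat, ornithine aminotransferase, turns ornithine into a glutamate precursor in the same cells. Its probe A_51_P141535 read 5.49, 5.39 and 5.46 in WT and 6.69, 5.43 and 6.25 in KO. KO replicates 1 and 3 were high and KO replicate 2 lay inside the WT range, so the groups overlap. The log2 difference was 0.67 (SE 0.31, 95% interval -0.09 to 1.44, limma adjusted p = 0.145), and with the scan as a block it was -0.019 (adjusted p = 0.956). After cyclic loess it was 0.39 (adjusted p = 0.35). Without KO replicate 2, where group and scan coincide, it was 1.02 and passed the test (adjusted p = 0.00754).

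Slc1a2 encodes the glutamate transporter GLT-1, which in liver carries glutamate into pericentral hepatocytes. The array holds 3 probes for it, A_55_P1955412 designed on NM_011393, and A_55_P2392625 and A_55_P2136847 designed on NM_001077514, another transcript of the gene. Probe A_55_P1955412 read 1.74, 1.39 and 1.49 in WT and 2.74, 2.07 and 2.54 in KO, with every KO value above every WT value. It rose 1.89-fold (log2 difference 0.92, SE 0.20, 95% interval 0.43 to 1.41, limma adjusted p = 0.0241). The direction is that of KO replicate 2 as well, where the difference to WT was 0.54 with the scan as a block, though the adjusted p was then 0.113.

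Probe A_55_P2392625 went the other way, with -1.50, -1.95 and -1.998 in WT and -3.53, -3.28 and -4.11 in KO. All 3 KO values lay below the WT values, and 2 of the 3 KO arrays were well above background, against all WT arrays. The log2 difference was -1.82 (SE 0.25, 95% interval -2.44 to -1.21), which is 3.54-fold lower in KO (limma adjusted p = 0.0094). With the scan as a block the difference was -1.46 (adjusted p = 0.0515), and with normexp background correction and quantile normalisation it was -0.66 and still called (adjusted p = 0.00483). The third of the gene's probes, A_55_P2136847, was well above background on no WT array and on 2 KO arrays and was not tested. It read -4.41, -5.31 and -4.49 in WT and -3.18, -5.27 and -3.60 in KO, which overlap.

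The called probes A_55_P1955412 and A_55_P2392625 can also be set against each other within an array, with no scaling between arrays. They had been called in opposite directions, so a wider difference in KO follows from that choice. They also lie in the 9th and 3rd brightness 10ths, counted from the dimmest, where the medians over all tested probes were 0.24 and -0.09. The first minus the second was 3.24, 3.33 and 3.48 in WT replicates 1 to 3, and 6.27 and 5.35 in KO replicates 1 and 2 (log2 units). On KO replicate 3 the second probe was not well above background, so no difference is given there. The call of A_55_P1955412 ended without WT replicate 2 (adjusted p = 0.081), WT replicate 3 (0.0966), KO replicate 1 (0.0667) or KO replicate 3 (0.093), and that of A_55_P2392625 without WT replicate 3 (adjusted p = 0.0514).

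Rhbg is an ammonium transporter of the hepatocyte surface. Its probe A_51_P400366 read -0.79, 0.03 and -0.29 in WT and 0.07, -0.998 and -0.18 in KO. The groups covered nearly the same range, with KO replicate 2 the lowest of all arrays. The log2 difference of -0.020 (SE 0.34, 95% interval -0.84 to 0.80, limma adjusted p = 0.967) was small beside its interval, and its sign turned with the scaling (0.10 with median centring). With the scan as a block it was -0.65 (adjusted p = 0.23).

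**Figure D2:**
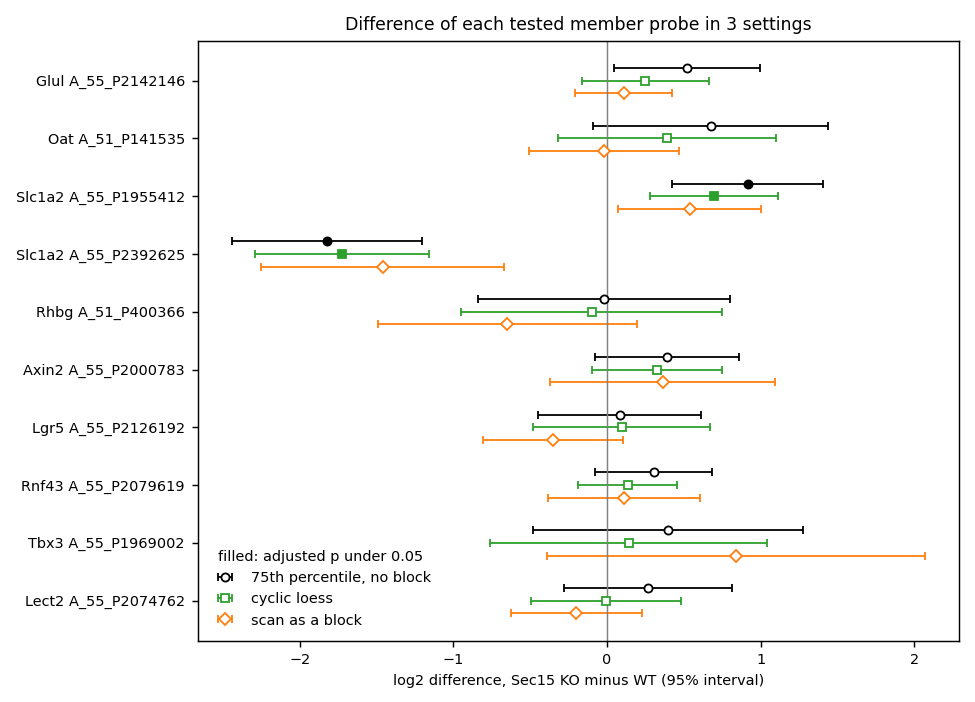
Log2 difference, Sec15 KO minus WT (x axis), with its 95% interval for each of the 10 tested probes, under the 75th percentile scaling, cyclic loess, and the scan as a block. Filled symbols mark an adjusted p under 0.05, which only the Slc1a2 probes reached, at 0.92 and -1.82, and neither did with the scan as a block.

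Axin2, a scaffold of the complex that destroys beta-catenin, is a direct target of the pathway and a common readout of it. On probe A_55_P2000783 the log2 signal was -0.40, -1.11 and -0.87 in WT and -0.40, -0.43 and -0.37 in KO. The KO arrays agreed closely with each other, and WT replicate 1 lay among them. Axin2 differed by 0.39 (log2, SE 0.19, 95% interval -0.08 to 0.86, limma adjusted p = 0.161) and 0.36 with the scan as a block. Without WT replicate 1 it was 0.59 and passed the test (adjusted p = 0.0295), and without WT replicate 2 it was 0.23 (adjusted p = 0.363). With WT replicates 1 and 2 averaged it was 0.41 and passed (adjusted p = 0.0331). These were the highest and lowest WT arrays, and that fit does not count the spread between them. The second Axin2 probe, A_66_P134405, read between -5.16 and -4.02 in WT and between -6.08 and -4.76 in KO; it cleared the background flag on 1 WT array alone and was not tested.

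Lgr5 is a receptor for R-spondins and marks hepatocytes at the central vein. Its probe A_55_P2126192 read -1.72, -1.62 and -1.62 in WT and -1.16, -2.01 and -1.55 in KO. The WT values lay between the KO values, and the log2 difference was 0.08 (SE 0.22, 95% interval -0.45 to 0.61, limma adjusted p = 0.785). With the scan as a block its sign turned, to -0.35 (adjusted p = 0.23).

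Rnf43 and Znrf3 are related ubiquitin ligases that remove Frizzled receptors from the cell surface and are held back by R-spondins. Rnf43 probe A_55_P2079619 read 1.13, 0.68 and 0.96 in WT and 1.31, 1.04 and 1.35 in KO. KO replicates 1 and 3 were above all WT arrays and KO replicate 2 was not, for a log2 difference of 0.30 (SE 0.16, 95% interval -0.08 to 0.69, limma adjusted p = 0.179). For Rnf43 the scan as a block gave 0.11 (adjusted p = 0.723) and cyclic loess 0.13 (adjusted p = 0.472). The Znrf3 probe, A_55_P2145252, was well above background on no array, with log2 signals between -4.50 and -4.05 in WT and between -5.18 and -4.28 in KO, so no difference is given.

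Tbx3 is a T-box transcription factor active in pericentral hepatocytes. Its probe A_55_P1969002 read 3.34, 2.17 and 2.71 in WT and 2.67, 3.58 and 3.18 in KO. The arrays of both groups were widely spread and overlapped, with KO replicate 2 the highest. Tbx3 differed by 0.40 (log2, SE 0.36, 95% interval -0.48 to 1.28, limma adjusted p = 0.416), and 0.84 with the scan as a block (adjusted p = 0.279).

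Lect2, leukocyte cell-derived chemotaxin 2, is a protein secreted by hepatocytes. Its probe A_55_P2074762 read 4.25, 4.01 and 4.18 in WT and 4.78, 3.95 and 4.51 in KO. KO replicate 2 was the lowest array and KO replicates 1 and 3 the highest. Lect2 differed by 0.27 (log2, SE 0.22, 95% interval -0.28 to 0.82, limma adjusted p = 0.384), -0.0070 after cyclic loess and -0.20 with the scan as a block. Without KO replicate 2, where group and scan coincide, it was 0.50 and passed the test (adjusted p = 0.0321).

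Promoter sequence was available from RefSeq (GRCm38.p6) for 6 of the 10 genes, 7 promoters in all, from 250 bases before to 50 after the start. These were searched on both strands for CTTTGAA and CTTTGAT, common forms of the core that TCF/LEF factors bind, of which a given position can match only 1. Of the 7 promoters 2 held a match, those of Slc1a2 and Lect2, and 8.65% of all 32851 promoters of this length did. The 250 bases before the start are shown for both, since Slc1a2 carried the called differences and Lect2 did not, and for Glul, the classical target, with the match in capitals (the reverse complement of CTTTGAT). The Slc1a2 stretch is chr2:102706188-102706437, plus strand, with the match from -207 to -201 counted back from the start. In the Lect2 stretch (chr13:56548539-56548788, minus strand) it lies from -32 to -26, and the Glul stretch (chr1:153899679-153899928, plus strand) holds none. The table does not tie the Slc1a2 start to any of the gene's probes.
Slc1a2: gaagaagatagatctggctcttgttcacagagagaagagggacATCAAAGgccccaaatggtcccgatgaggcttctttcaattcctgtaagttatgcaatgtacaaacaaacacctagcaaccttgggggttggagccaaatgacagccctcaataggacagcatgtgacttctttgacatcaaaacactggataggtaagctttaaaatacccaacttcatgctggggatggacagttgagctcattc
Lect2: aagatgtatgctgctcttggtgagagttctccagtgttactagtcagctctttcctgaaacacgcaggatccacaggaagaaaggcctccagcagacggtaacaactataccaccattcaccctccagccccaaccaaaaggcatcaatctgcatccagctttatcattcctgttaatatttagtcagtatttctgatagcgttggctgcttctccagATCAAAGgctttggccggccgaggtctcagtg
Glul: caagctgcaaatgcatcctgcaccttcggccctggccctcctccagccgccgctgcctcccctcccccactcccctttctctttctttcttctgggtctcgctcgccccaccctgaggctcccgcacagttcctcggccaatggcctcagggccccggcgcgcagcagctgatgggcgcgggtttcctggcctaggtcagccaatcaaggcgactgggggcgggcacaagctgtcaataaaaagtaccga
A match describes letters alone, and the array measured no binding. No match says only that these letters are not in this window.

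The genes upstream of these targets were taken as lists, with 1 probe per gene, the brightest that passed the filter. Of 16 tested Wnt ligands, R-spondins and secretion factors, 4 fell and none rose at the adjusted threshold (limma; 6 at an unadjusted p under 0.05). Their median log2 difference was -0.27, and with 1 probe per gene 18.6% of all 15560 named genes were called higher and 10.7% lower. Wnt9b, a ligand made by endothelial cells of the central vein, was read by probe A_52_P15377. It gave 0.77, 1.27 and 0.97 in WT and -1.94, -0.31 and -1.96 in KO, every KO array below every WT array. The log2 difference was -2.41 (SE 0.47), or 5.31-fold lower in KO (limma adjusted p = 0.0184), and -1.31 with the scan as a block, which sets the single array of KO replicate 2 against WT (adjusted p = 0.033). The call of Wnt9b ended on leaving out WT replicate 2 (adjusted p = 0.067), WT replicate 3 (0.0765), KO replicate 1 (0.0583) or KO replicate 3 (0.0719).

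Wnt4 fell by 0.69 (SE 0.09), Wnt8b fell by 1.59 (SE 0.23; its second probe read -1.13 and was not called) and Wnt5b fell by 0.43 (SE 0.10) on the log2 scale. Under the scan block Wnt4 stood at -0.70 (adjusted p = 0.0349), Wnt8b at -1.55 (adjusted p = 0.0584) and Wnt5b at -0.32 (adjusted p = 0.114). Wnt2, the other ligand typical of these endothelial cells, was well above background on 1 WT and 2 KO arrays, with a difference of 0.49 (SE 0.23, limma adjusted p = 0.152). Rspo3, the R-spondin of the central vein, read -0.36, -0.57 and -0.42 in WT and -0.27, -0.67 and -0.37 in KO. Its log2 difference was 0.013 (SE 0.14, 95% interval -0.33 to 0.35, adjusted p = 0.95). Rspo2, Wnt3a and Wnt8a were well above background on no array.

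**Figure D3:**
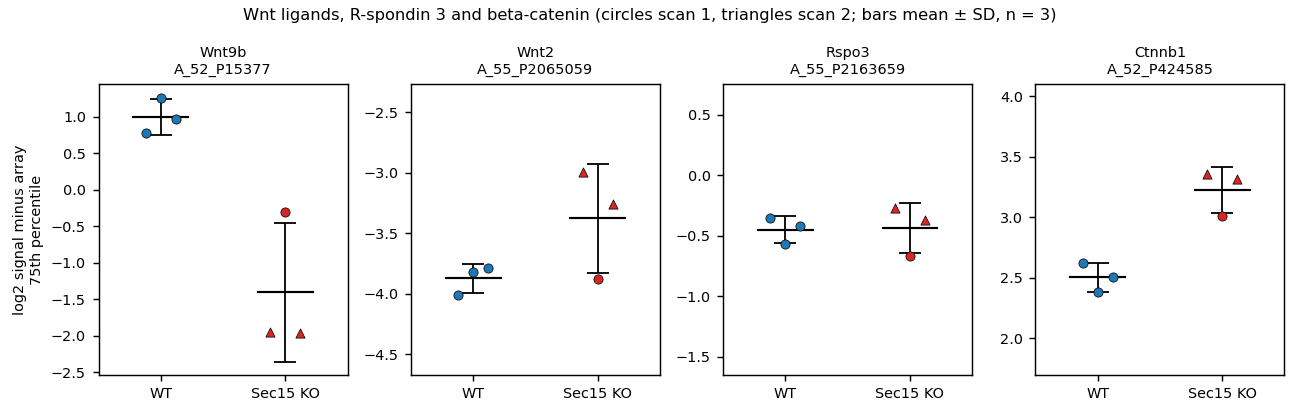
Log2 signal minus the array's 75th percentile (y axis) of Wnt9b, Wnt2, Rspo3 and Ctnnb1 in WT and Sec15 KO, 1 point per array, with circles for scan 1, triangles for scan 2 and bars for mean ± SD (n = 3). Wnt9b is lower and Ctnnb1 higher on every KO array than on any WT array, while Rspo3 overlaps.

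Endothelial markers were read beside the ligands, since Wnt9b, Wnt2 and Rspo3 come from endothelial cells. Of 11 tested, 6 rose and none fell (limma; median 0.54), where 18.6% of named genes were called higher, among them Vwf (1.33, SE 0.13), Stab2 (0.99, SE 0.11), Stab1 (0.84, SE 0.13) and Lyve1 (0.73, SE 0.14). The count of 6 was 1 without WT replicate 3, 2 without KO replicate 3, 3 without KO replicate 1, and 3 with the scan as a block (median 0.22), where Lyve1 was not called (adjusted p = 0.0789). The summed linear signal of the list was between 23.8 and 24.4 times the 75th percentile in WT and between 30.2 and 40.5 in KO, and all 11 markers were well above background in WT. Of 7 tested Kupffer cell markers 3 rose (Marco, Cd5l and Clec4f) and none fell. No Kupffer cell marker was called with the scan as a block (median 0.23), without WT replicate 3 or without KO replicate 3. Without KO replicate 1, 1 was called higher. The part of these cell types in the ligand values was not tested.

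Of 12 tested receptors and co-receptors, 1 rose and 1 fell on the brightest probe, with a median of 0.02. Neither count was above the background, since 18.6% of named genes were called higher and 10.7% lower. Another probe was called higher for Fzd5 (0.95, limma adjusted p = 0.0251) and lower for Lrp6 (-0.84, adjusted p = 0.0404). Fzd1 was 0.59 higher on the log2 scale (SE 0.11, limma adjusted p = 0.0155; 0.0641 with the scan as a block). Fzd3 was well above background on all WT arrays and no KO array and at least 5.84-fold lower in KO (adjusted p = 0.00985). The bound sets the KO arrays at the dimmest signal that counted as well above background. Fzd9, Fzd10, Lgr6, Ror1 and Ror2 were well above background on no array.

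In the beta-catenin core and its nuclear partners, 3 of 19 tested genes rose and 3 fell on the brightest probe, with a median of 0.11. Over all named genes 18.6% were called higher and 10.7% lower, so these counts were near the background. Another probe of Tnks2 was called higher (0.67, limma adjusted p = 0.037). Ctnnb1, beta-catenin itself, read 2.62, 2.38 and 2.51 in WT and 3.36, 3.01 and 3.32 in KO on probe A_52_P424585. The groups did not overlap, and it rose 1.65-fold (log2 difference 0.72, SE 0.13, limma adjusted p = 0.0166), 0.51 with the scan as a block (adjusted p = 0.0727). Csnk1d, a casein kinase, rose by 0.64 (SE 0.09). Bcl9l, a coactivator that binds beta-catenin, fell by 2.56 (SE 0.48) on the log2 scale, and Dvl3, which relays the Frizzled signal, fell by 0.47 (SE 0.11). Under the scan block the calls of Bcl9l (-1.55, adjusted p = 0.0669) and Dvl3 (-0.44, adjusted p = 0.119) ended, and that of Dvl3 also with the replicate number as a block (adjusted p = 0.06). Of 10 tested secreted and feedback inhibitors none passed the test by limma on the brightest probe (4 at an unadjusted p under 0.05). Another Tle1 probe was called lower (-0.50, limma adjusted p = 0.0353), where the brightest read 0.63. On the brightest probes other settings made calls: 1 higher and 1 lower with quantile normalisation, normexp, the filter on all 6 arrays, or eBayes trend and robust. There was 1 higher with median centring or without WT replicate 1, 1 lower after cyclic loess, 4 higher and 4 lower with array weights, and 1 higher and 3 lower without KO replicate 2. Of all tested probes 78.2% were called with array weights and 46.6% without KO replicate 2.

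**Figure D4:**
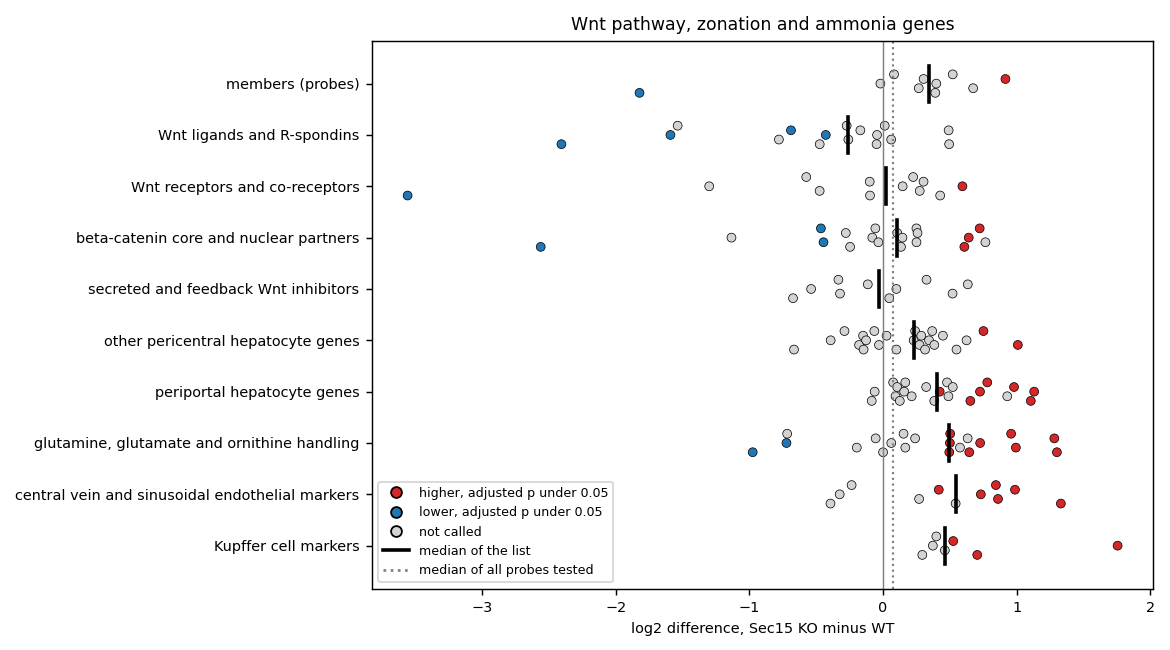
Log2 difference, Sec15 KO minus WT (x axis), of the 10 tested probes of the target genes and of the genes of 9 lists (1 point per gene, brightest probe), with red for higher and blue for lower at an adjusted p under 0.05. Black bars mark medians and the dotted line the median of all tested probes (0.08); the ligand list has its median below 0, at -0.27, and the glutamine list at 0.50.

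Other genes with a pericentral pattern and genes of the periportal zone were set beside the targets. Of 24 tested pericentral genes 2 rose and none fell on the brightest probe (limma; median 0.23), Ahr, the aryl hydrocarbon receptor (1.01, SE 0.21), and Avpr1a, a vasopressin receptor (0.75, SE 0.14). Both calls ended with the scan as a block (adjusted p = 0.109 for Ahr and 0.0709 for Avpr1a), and the list had none higher, 1 lower and a median of -0.14. Without WT replicate 3 or KO replicate 3 none was called. In the fit without KO replicate 2, which called 46.6% of all tested probes, 10 were higher. With no block, a second probe not counted here was called lower for Gstm1 (-1.06, limma adjusted p = 0.0104) and Gstm3 (-1.03, adjusted p = 0.0124). Cyp2e1 and Cyp1a2, named after their values were seen because they are widely used pericentral markers, did not pass: the differences were 0.45 (SE 0.18, adjusted p = 0.107) and -0.67 (SE 0.25, adjusted p = 0.0953). With the scan as a block, which rests on KO replicate 2 alone, Cyp1a2 stood at -1.22 (adjusted p = 0.029). Of 22 tested periportal genes 7 rose and none fell on the brightest probe, with a median of 0.40, against 18.6% of named genes called higher and 36.4% of the brightest 10th of all tested probes. None was called without WT replicate 3 or KO replicate 3, 4 without WT replicate 2, 3 without KO replicate 1 and 13 without KO replicate 2. That last fit called 46.6% of all tested probes. The scan block left 3 called, with a median of 0.12. The 7 that rose without a block included Sds, serine dehydratase (1.13, SE 0.15), Agxt (0.73, SE 0.10), Asl, the argininosuccinate lyase of the urea cycle (0.65, SE 0.10), and Hsd17b13 (0.98, SE 0.17; its second probe read 0.07 and was not called). The Hsd17b13 call ended with the scan as a block (adjusted p = 0.0857). Other probes of periportal genes were called as well. Igf1 was lower on A_55_P2031636 (-0.83, limma adjusted p = 0.0182) and higher on A_55_P2085974 (0.44, adjusted p = 0.0329). Pigr was higher on A_51_P239737 (0.96, adjusted p = 0.0269). The difference between the zones was not tested. After cyclic loess the medians were -0.04 for the pericentral and 0.16 for the periportal list.

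Genes that handle glutamine, glutamate and ornithine, beside Glul, Oat, Slc1a2 and Rhbg, were listed too: of 21 tested 9 rose and 2 fell (limma; median 0.50), where 18.6% and 10.7% of named genes did. Without WT replicate 3 there was 1 higher, and without WT replicate 2, KO replicate 1 or KO replicate 3 there were 2 higher, with none lower in any of these. Slc1a4, a neutral amino acid transporter of the Slc1a family, rose by 1.30 (SE 0.13), the glutamine transporter gene Slc38a2 by 0.99 (SE 0.13) and the alanine aminotransferase gene Gpt by 0.73 (SE 0.14) on the log2 scale. Slc1a1, another glutamate transporter of that family, fell by 0.72 (SE 0.14). The calls of Gpt (adjusted p = 0.0995) and Slc1a1 (0.095) ended with the scan as a block. Within scan 1 the list's median was 0.15, with 2 genes called higher and none lower. Cyclic loess gave a median of 0.22, with 5 higher and 1 lower. The signal also moved with brightness over the whole array: the median log2 difference was -0.26 in the dimmest 10th of the tested probes and 0.29 in the brightest, the 10th that holds the Glul, Oat and Lect2 probes. After cyclic loess, which evens out such a trend, these read 0.25, 0.39 and -0.0070.

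Single arrays decided many of these calls. Of the 24 genes named from the lists above as called, excluding marker lists other than the endothelial one, 12 kept the call with the scan as a block, 22 without WT replicate 1, 16 without WT replicate 2, 2 without WT replicate 3, 13 without KO replicate 1, 24 without KO replicate 2 and 4 without KO replicate 3. All kept their direction in each of these fits. Of the ligand, receptor and beta-catenin core lists no gene was called without WT replicate 3 or KO replicate 3. Without KO replicate 2, 7 genes of the ligand list were lower and 1 was higher. Over the whole array the share called was 1.31% without WT replicate 3 and 3.69% without KO replicate 3. It was 46.6% without KO replicate 2, the fit in which group and scan coincide.

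The probes whose pattern over the 6 arrays was most like that of Glul were sought among 17005 named probes well above background on all arrays, each centred on its own mean. The nearest were Arl1, Plpp1 and Fggy, with a root mean square distance of 0.029, 0.029 and 0.033 log2 units. Their log2 differences, which follow from that choice, were 0.50, 0.52 and 0.53.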

How the data were processed

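Liver RNA of 3 WT and 3 Sec15 KO samples was read on Agilent arrays, each sample on its own array. The authors deposited each spot's intensity as read by Agilent Feature Extraction 11.0.1.1, per the file headers, after background subtraction and without normalisation between arrays. Other deposited columns are yes-or-no flags of the same software. Outlier spots were left out, and no spot was saturated.

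Spots of a probe were averaged on the log2 scale, and the array's 75th percentile was subtracted. Accessions were matched to RefSeq symbols (GRCm38.p6, for names alone): 27234 of 39429 probes matched 1 symbol. The 27060 probes well above background on at least 3 arrays were fitted with limma 3.58.1 (lmFit, eBayes) in R 4.3.3, and p-values were adjusted over all of them (Benjamini-Hochberg, threshold 0.05). The code was tested on simulated data.

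The 10 genes and the 14 gene lists were chosen with earlier results of these data known. Every probe of the 10 genes was named, and of each list up to 4 called genes with the smallest p, plus Wnt2, Wnt9b, Rspo3 and Ctnnb1. The alternatives, given at the end, covered scaling, filters, blocks and single arrays. The number of arrays limits the precision. Proteins were not used here.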

Additional observations from a re-analysis of the deposited data

How the results depend on the processing

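Of 189 refits of single probes, 176 kept the direction and 157 kept both direction and side of the threshold. The count of kept directions includes refits that could not change it. Changing only the filter, the eBayes options or the replicate block leaves the log2 difference of a probe as it was. So does averaging the probes of a gene that has a single tested probe. Against 1 probe higher and 1 lower, the count of higher probes was 7 with array weights (which called 78.2% of all probes), 2 with WT replicates 1 and 2 averaged, and 0 with the scan as a block or with each gene's probes averaged. The count of lower probes was 0 in both of those fits and with a filter on all 6 arrays (which removed the Slc1a2 probe). Leaving out 1 array gave 0 to 4 higher and 0 to 1 lower. The sign reversed for Oat (-0.019), Lect2 (-0.20) and Lgr5 (-0.35) with the scan as a block, Lect2 after cyclic loess (-0.0070) and normexp with quantile normalisation (-0.0082), Lgr5 without KO replicate 1 (-0.12), and Slc1a2 A_55_P1955412 when averaged with its opposite probe (-0.45, by construction). Rhbg reversed with median centring (0.10), normexp (0.058), array weights (0.13), and without WT replicate 2 (0.17), WT replicate 3 (0.010) or KO replicate 2 (0.30), its range on leaving out 1 array being -0.24 to 0.30. For the others the cause was not tested.

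Over all probes, 4593 were higher and 3144 lower. At least 1 of these counts moved by over 1.5 times after cyclic loess (2946 and 3220), with no filter (2932 and 2442), array weights (12002 and 9161), the scan as a block (1312 and 1214), and without WT replicate 2 (1340 and 1178), WT replicate 3 (204 and 151), KO replicate 1 (1637 and 1327), KO replicate 2 (6815 and 5793) or KO replicate 3 (486 and 513). Higher calls were 59.4% of the total, 70.1% with median centring and 47.8% after cyclic loess. With the replicate block 1 probe was higher and 1 lower, the same probes, and over all probes 3432 and 2696. Same-numbered samples deviated from their group means with correlations of 0.10, 0.11 and 0.024, and KO replicate 3 correlated best with WT replicate 1 (0.036), so the numbers were not taken to pair samples.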
